A study of Mus musculus with 15 samples.

Results

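The genes described here carry a cell from the end of G2 through mitosis. They were chosen by name as a set of 38 genes (mitotic cyclins, Cdk1 and its phosphatases, mitotic kinases, the spindle checkpoint, partners of the anaphase-promoting complex, the centromere and kinetochore, kinesins and spindle proteins, cytokinesis, and 3 chromosome and transcription genes). The arrays name 36282 genes, of which 22908 were tested. Of the 38 members, 37 were tested, since the only probe for Aurkb, the kinase of the chromosomal passenger complex, rose well above background on none of the arrays. The other 37 were well above background on all 15 arrays, except Cenpf, which was so on 13.

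RNA came from LSZ2 and LSZ4, a pair of mouse non-small cell lung cancer lines cultured and infected with viruses that carry short hairpin RNAs. shSiva1 and shSiva2 (in the pLKO TRC2.0 vector) target Siva, a p53 target gene whose part in these tumour cells the study asks about. shGFP (in pLKO.1) and shLacZ (in LL37) are the controls. All cells but those with shLacZ were selected with puromycin for 3 days, and RNA was taken 2 days after plating. Every combination of line and hairpin was hybridised to 2 arrays, but for LSZ2 carrying shGFP, which has a single array. There were thus 7 control and 8 shSiva arrays. The labels do not say whether replicates were separate cultures, so p-values here reflect the spread among these samples alone, and that spread may be technical. They also do not say whether the numbers after shGFP mark replicates or different hairpins, and they were read as replicates.

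In mitosis, Cdk1 bound to cyclin B is switched on by the Cdc25 phosphatases and drives chromosome condensation and spindle assembly. The spindle checkpoint holds the anaphase-promoting complex in check until every kinetochore is attached. The complex, with Cdc20, then marks securin and cyclin B for destruction, separase cuts cohesin, and the cell divides. Most of these genes are transcribed together late in the cell cycle, under the DREAM complex (which represses them), B-Myb and Foxm1, through the CHR element and the CCAAT boxes of their promoters. They are low in cells that do not divide, and p53 lowers many of them through p21. Mki67 is used in tumour pathology to mark dividing cells.

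Promoters from 250 bases before to 50 after the start were in RefSeq's table (build GRCm38.p6) for 32 of the 38 members. Ccna2, Cdc25c, Aurkb, Kif20a, Tpx2 and Foxm1 had no entry. The core letters of the CHR element, TTTGAA on either strand, were in the promoters of 22 of the 32 members (68.8%), against 20.2% of 27025 genes and 17.9% of 32851 promoters. CCAAT on either strand was in 24 of the 32 (75%), against 41.1% of genes and 37.4% of promoters. Both were found in 19 of the 32 (59.4%), against 7.97% of genes and 6.95% of promoters. The 2 motifs can share only an end letter. The E2F-like letters TTCCCGCC or TTTCCCGC, which overlap each other, were in 0 of the 32 and in 3.15% of genes and 2.73% of promoters. A match to letters is a description of sequence, and does not show that a factor binds there.

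**Figure D1:**
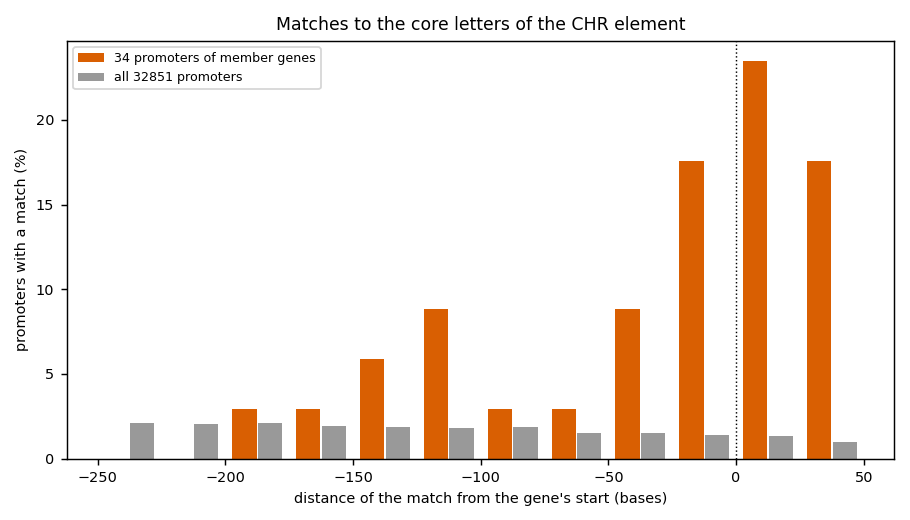
The percentage of promoters with a match to TTTGAA on either strand (vertical axis) is plotted in bins of 25 bases by distance from the gene's start (horizontal axis), for 34 promoters of the 32 members with an entry (orange) and for all 32851 promoters (grey). In the bin that begins at the start, 23.5% of the member promoters held a match, against 1.31% of all promoters.

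The 8 promoters below are those of the members that passed the test against either control and had an entry. They are shown from 150 bases before to 30 after the start, 5′ to 3′ along the gene's strand. Capitals mark the letters of CCAAT and TTTGAA, read on either strand (ATTGG and TTCAAA on the other). Ccnb1 and Mad2l1 passed against shLacZ, and the other 6 against shGFP. They lie on GRCm38.p6 with Ccnb1 at chr13:100786457-100786636 on the minus strand, Mad2l1 at chr6:66535071-66535250 on the plus strand, Cdc25b at chr2:131186798-131186977 on the plus strand, Aurka at chr2:172370541-172370720 on the minus strand. The remaining windows are Cdc20 at chr4:118437314-118437493 on the minus strand, Ube2c at chr2:164769779-164769958 on the plus strand, Pttg1 at chr11:43425952-43426131 on the minus strand and Cenpa at chr5:30666736-30666915 on the plus strand.
Ccnb1: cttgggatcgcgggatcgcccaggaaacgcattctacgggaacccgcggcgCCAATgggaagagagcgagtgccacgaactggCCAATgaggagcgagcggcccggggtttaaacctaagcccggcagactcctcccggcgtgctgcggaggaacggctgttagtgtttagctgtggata
Mad2l1: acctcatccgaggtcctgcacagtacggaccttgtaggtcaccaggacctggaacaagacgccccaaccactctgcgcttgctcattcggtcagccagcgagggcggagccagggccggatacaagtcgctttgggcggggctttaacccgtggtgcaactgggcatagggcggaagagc
Cdc25b: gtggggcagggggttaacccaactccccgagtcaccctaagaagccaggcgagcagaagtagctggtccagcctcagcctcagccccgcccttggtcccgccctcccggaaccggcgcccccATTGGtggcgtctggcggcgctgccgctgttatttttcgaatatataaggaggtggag
Aurka: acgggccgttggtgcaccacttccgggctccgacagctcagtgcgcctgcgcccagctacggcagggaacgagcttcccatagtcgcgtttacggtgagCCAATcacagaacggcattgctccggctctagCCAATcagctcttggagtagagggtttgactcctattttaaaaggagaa
Cdc20: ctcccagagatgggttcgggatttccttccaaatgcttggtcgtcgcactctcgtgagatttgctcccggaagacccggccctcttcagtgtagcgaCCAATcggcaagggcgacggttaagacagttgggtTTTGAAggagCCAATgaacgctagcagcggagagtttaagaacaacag
Ube2c: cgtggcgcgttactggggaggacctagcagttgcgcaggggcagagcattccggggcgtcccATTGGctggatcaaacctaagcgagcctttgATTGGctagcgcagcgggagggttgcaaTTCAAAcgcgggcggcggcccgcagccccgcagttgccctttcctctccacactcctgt
Pttg1: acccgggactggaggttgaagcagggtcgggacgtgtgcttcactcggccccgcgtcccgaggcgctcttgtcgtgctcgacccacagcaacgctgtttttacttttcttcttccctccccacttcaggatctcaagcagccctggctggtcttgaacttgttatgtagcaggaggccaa
Cenpa: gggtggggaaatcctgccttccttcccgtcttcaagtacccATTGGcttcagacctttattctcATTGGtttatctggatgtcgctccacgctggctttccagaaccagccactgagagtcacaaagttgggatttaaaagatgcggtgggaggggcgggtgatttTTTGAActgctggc
Cdc20, Cenpa and Ube2c held both motifs in these windows. Aurka held CCAAT boxes there and a TTTGAA match from base 33 after its start, past the part shown. Ccnb1 and Cdc25b held CCAAT without TTTGAA, while Mad2l1 and Pttg1 held neither in the whole 300 bases.

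Siva1 itself was lower on each of the 8 shSiva arrays than on each of the 7 control arrays. On the scale used throughout, the log2 signal less the log2 75th percentile signal of the array, Siva1 lay between 5.50 and 6.22 with shLacZ, 5.53 and 6.75 with shGFP, 2.56 and 3.40 with shSiva1, and 3.70 and 4.35 with shSiva2. The fitted level with both Siva hairpins was 20.5% of that with shLacZ and 14.2% of that with shGFP. The 75th percentile signal, called brightness here, ran from 425 to 1029 intensity units over the arrays, and 49.0% to 60.6% of spots were well above background. The 7 control arrays shared 1 slide and the 8 shSiva arrays the other, and the vectors differ in the same way, so slide, vector and Siva hairpins cannot be told apart. Against shLacZ, puromycin selection also differs and cannot be told apart from the Siva hairpins. By the array barcodes, shGFP and shSiva1 lay in row 1 of their slide, and shLacZ and shSiva2 in row 2. LSZ2 lay in columns 1 and 2, and LSZ4 in columns 3 and 4. Position on the slide thus cannot be told apart from line, nor, within a slide, from hairpin. Of 6 epithelial markers, 5 were well above background on all arrays, and Epcam on 14. Of the lung markers, Sftpb was so on 11 arrays (all 7 of the controls) and Scgb1a1 on 8 (4 of the controls), while Nkx2-1, Sftpc, Sftpa1 and Foxj1 were so on none. Among endothelial markers, Pecam1 and Kdr were well above background on all 15 arrays, and Cdh5, Tek and Emcn on none. Among fibroblast markers, Col1a2 was so on all 15, Col3a1 on 8 and Col1a1 on 5, and Pdgfra, Dcn and Lum on none. Among 6 markers of blood and immune cells, Cd3e, Itgam and Csf1r were so on all 15, Emr1 (Adgre1) on 10, Ptprc on 8 and Cd68 on 3. The summed level of the 5 endothelial markers was 4.75 to 10.1 times the 75th percentile with shLacZ, 6.22 to 14.6 with shGFP, 4.06 to 8.52 with shSiva1 and 5.31 to 11.7 with shSiva2. That of the 6 fibroblast markers was, in the same order of hairpins, 0.125 to 0.209, 0.133 to 0.272, 0.193 to 0.340 and 0.134 to 0.191, and that of the 6 blood and immune markers 13.3 to 17.3, 16.7 to 18.3, 12.2 to 14.7 and 13.2 to 17.1. The summed level of the 6 epithelial markers was 1414 to 2525 times the 75th percentile with shLacZ and 1551 to 3548 with shGFP. With shSiva1 it was 1420 to 2253, and with shSiva2 1597 to 2924. The part of these markers in the results was not tested.

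**Figure D2:**
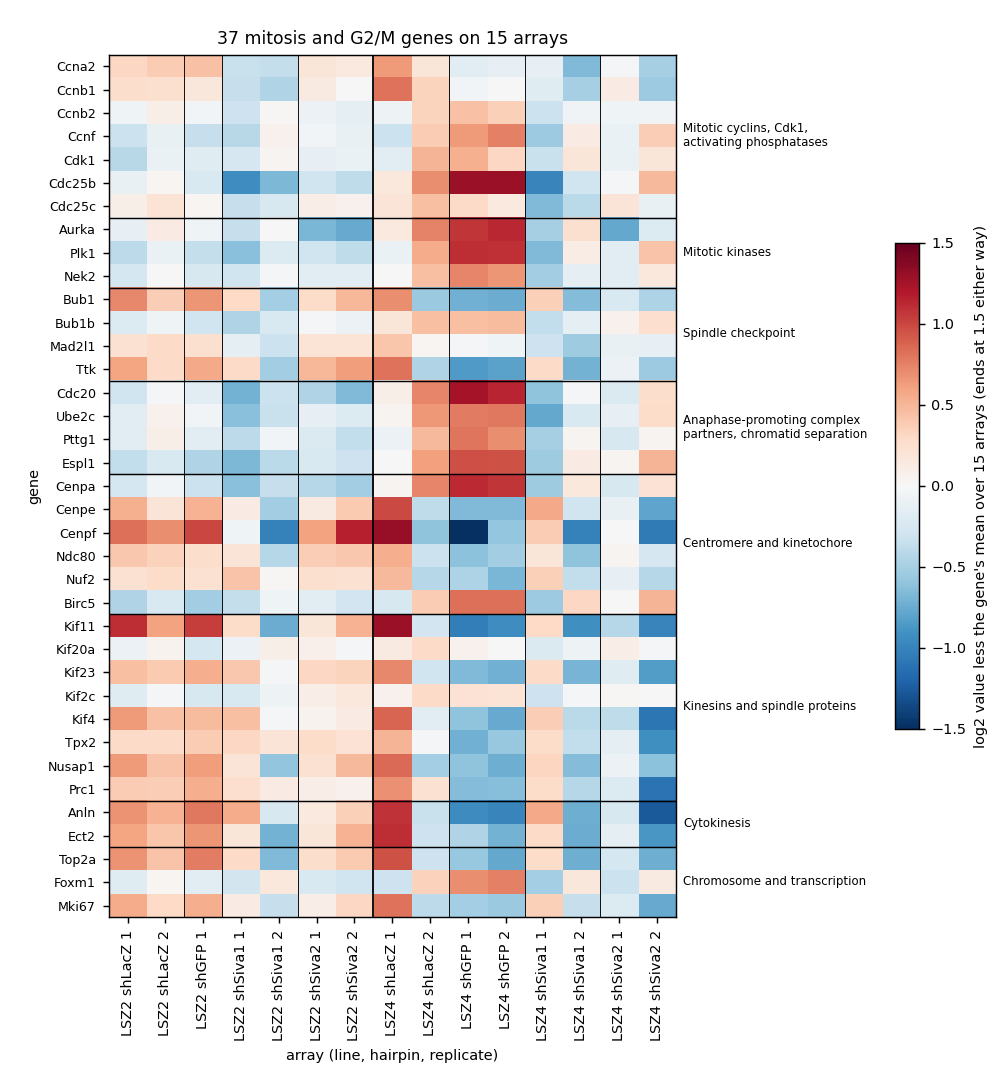
Each of the 37 members (rows, in order of role) is shown on the 15 arrays (columns, by line, hairpin and replicate), as the log2 value less the gene's mean over all arrays, with colours ending at 1.5 either way. Cdc20, Cdc25b, Plk1 and Birc5 are high where Kif11, Anln, Top2a and Cenpf are low, most plainly on the shGFP arrays of LSZ4, and the replicates of LSZ4 with shLacZ or shSiva1 differ from each other in the same way.

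Against shLacZ, the mean of both Siva hairpins was lower for Ccnb1 and Ccna2, the B and A cyclins that partner Cdk1, for Cdc25c, a phosphatase that activates Cdk1, and for Mad2l1, the Mad2 protein of the spindle checkpoint. These 4 of the 37 members passed the test (limma over all 15 arrays with line and hairpin as terms, adjusted p under 0.05 by Benjamini-Hochberg over 22908 genes), and 0 passed upward. Over all genes, 4.02% passed downward and 7.04% upward. The estimate was below 0 for 35 of the 37 members, with a median log2 change of -0.38, beside -0.03 over all genes. In bulk RNA, fewer cells in mitosis and less RNA in each such cell cannot be told apart.

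Ccnb1 read 4.90 and 4.87 on the shLacZ arrays of LSZ2, and 5.44 and 4.96 on those of LSZ4. With shSiva1 it read 4.29 and 4.18 in LSZ2, and 4.44 and 4.13 in LSZ4, and with shSiva2 4.76 and 4.63 in LSZ2, and 4.75 and 4.08 in LSZ4. All 8 shSiva arrays lay below the shLacZ arrays of their line. The log2 change was -0.63 (SE 0.16, adjusted p = 0.0196), and the other probes of Ccnb1 gave -0.28 and -0.35 and did not pass over all probes.

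Ccna2 read 5.37 and 5.45 with shLacZ in LSZ2, and 5.70 and 5.25 in LSZ4. It read 4.73 and 4.71 with shSiva1 in LSZ2, 4.94 and 4.40 with shSiva1 in LSZ4, 5.24 and 5.21 with shSiva2 in LSZ2, and 5.04 and 4.56 with shSiva2 in LSZ4. The 8 shSiva arrays again all lay below the shLacZ arrays of their line, by more with shSiva1 than with shSiva2 in LSZ2. The log2 change was -0.59 (SE 0.16, adjusted p = 0.0291).

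Mad2l1 read 5.23 and 5.29 with shLacZ in LSZ2, and 5.43 and 5.04 in LSZ4. It read 4.87 and 4.68 with shSiva1 in LSZ2, 4.69 and 4.47 with shSiva1 in LSZ4, 5.22 and 5.21 with shSiva2 in LSZ2, and 4.90 and 4.88 with shSiva2 in LSZ4. The gap to the nearest shLacZ array was small with shSiva2 in LSZ2, though no array overlapped. The log2 change was -0.38 (SE 0.12, adjusted p = 0.0482), and the other probes gave -0.26 and -0.30 and did not pass. Adjusted over all probes in place of genes, the first probe itself had 0.0515 and did not pass.

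Cdc25c read 1.41 and 1.52 with shLacZ in LSZ2, and 1.51 and 1.77 in LSZ4. With shSiva1 it fell to 0.97 and 1.07 in LSZ2, and 0.66 and 0.91 in LSZ4. With shSiva2 it read 1.41 and 1.38 in LSZ2, and 1.51 and 1.21 in LSZ4, 1 of these arrays overlapping the shLacZ range. The log2 change over both hairpins was -0.41 (SE 0.12, adjusted p = 0.0486).

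Members whose 8 shSiva arrays all lay below the shLacZ arrays of their line were thus Ccna2, Ccnb1 and Mad2l1, 3 of 37, beside 2.84% of all genes. The counts rested on single arrays. Here and below, the share of all genes that passed in a fit without an array is not given. Whether such swings are particular to the members was not tested. Without replicate 1 of LSZ4 with shLacZ, 0 members passed against shLacZ. Without LSZ2 shLacZ replicate 2, LSZ4 shLacZ replicate 2, LSZ2 shSiva1 replicate 1 or LSZ4 shSiva1 replicate 2, 1 passed. Without LSZ2 shLacZ replicate 1, LSZ2 shSiva1 replicate 2, either shGFP array of LSZ4 or any of the shSiva2 arrays, 2 passed. Without the LSZ2 shGFP array, 6 passed. Mad2l1 passed only without LSZ2 shGFP or LSZ4 shSiva1 replicate 1, and Cdc25c only without LSZ2 shGFP or LSZ2 shSiva1 replicate 2, among the 15 fits that each left out 1 array. Median scaling and normexp background correction each left 0 members that passed, beside 3.59% and 1.43% of genes downward. Under quantile scaling 7 passed, beside 6.36% of genes, but Ccnb1, Ccna2 and Mad2l1 were not among them. Over 12 other settings for scaling, filter and model, Ccnb1 lost its call in 3, Ccna2 and Cdc25c in 4 each and Mad2l1 in 7, while 34 to 37 of 37 estimates were below 0 under every scaling.

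The other members did not pass against shLacZ. Kif11, the kinesin that pushes spindle poles apart, had the largest estimate, -0.91 (SE 0.37), with 7 of 8 shSiva arrays below the shLacZ arrays of their line. Both cytokinesis genes, Anln (anillin) and Ect2 (which activates RhoA at the cleavage site), had estimates of -0.59 (SE 0.34) and -0.61 (SE 0.31). The 8 kinesins and spindle proteins had a median of -0.41 and ran from -0.91 to -0.08, with Kif4 at -0.56 (SE 0.24) and Prc1, which bundles the midzone, at -0.53 (SE 0.22). Top2a, the topoisomerase that untangles sister chromatids, gave -0.58 (SE 0.30) and Mki67 -0.41 (SE 0.25). Near 0 lay Cdk1 at -0.02 (SE 0.17), Ccnf at 0.01 (SE 0.21) and Birc5 (survivin, of the passenger complex) at 0.06 (SE 0.22).

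Against shGFP, none of those 4 passed and 6 other members did. Cdc25b, the phosphatase that starts Cdk1 activation at the centrosome, had a log2 change of -1.08 (SE 0.24, adjusted p = 0.0083), and Aurka, the kinase of spindle poles, one of -1.02 (SE 0.23, adjusted p = 0.00912). Of the 4 partners of the anaphase-promoting complex and separation genes, 3 fell: Cdc20, its activator, by 0.98 (SE 0.22), Ube2c, its ubiquitin-conjugating enzyme, by 0.73 (SE 0.19), and Pttg1, securin, by 0.61 (SE 0.20). Cenpa, the centromeric histone, fell by 0.81 (SE 0.23). These 6 of 37 members passed downward and 0 upward, beside 13.3% and 7.11% of all genes. The median of the members was -0.23, beside -0.21 over all genes, and 23 of 37 estimates were below 0. Under quantile scaling the members' median was 0.02, with 18 estimates below 0. Both comparisons share the shSiva arrays, and the difference between them is that of the controls, described below, for which 0 members passed.

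**Figure D3:**
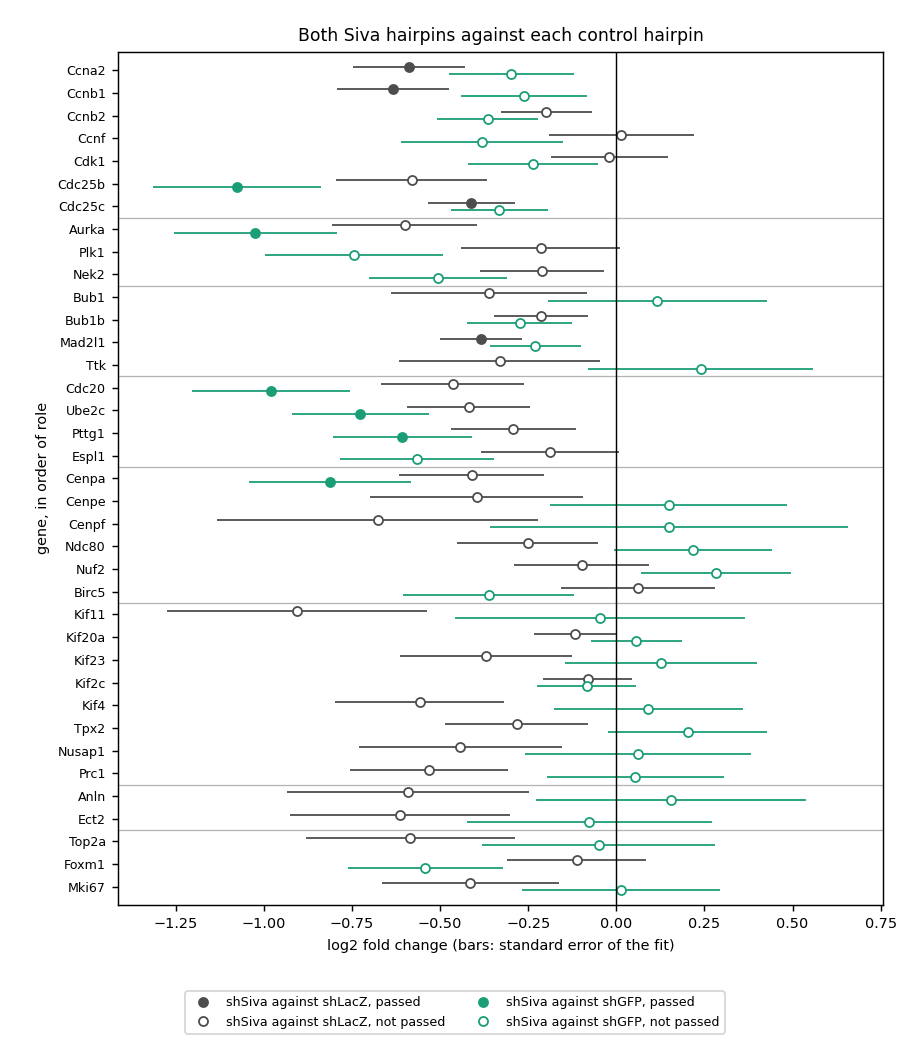
The log2 fold change of both Siva hairpins against shLacZ (grey) and against shGFP (green) is plotted on the horizontal axis with its standard error for the 37 members, in order of role on the vertical axis. Filled points passed the test. The grey points lie between -0.91 and 0.06, and the green ones between -1.08 and 0.28.

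Cdc25b read 4.48 on the single LSZ2 shGFP array and 6.0 on both shGFP arrays of LSZ4. It read 3.78 and 4.04 with shSiva1 in LSZ2, 3.71 and 4.41 with shSiva1 in LSZ4, 4.41 and 4.32 with shSiva2 in LSZ2, and 4.67 and 5.19 with shSiva2 in LSZ4. Every shSiva array lay below the shGFP arrays of its line, narrowly in LSZ2 with shSiva2 and widely in LSZ4. The shLacZ arrays, at 4.59 and 4.73 in LSZ2 and 4.87 and 5.40 in LSZ4, lay between shGFP and shSiva1 in LSZ4, and the change against shLacZ was -0.58 (SE 0.21, adjusted p = 0.106).

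Aurka read 4.74 with shGFP in LSZ2, and 5.88 and 5.93 in LSZ4. It read 4.45 and 4.80 with shSiva1 in LSZ2, 4.31 and 5.04 with shSiva1 in LSZ4, 4.12 and 4.05 with shSiva2 in LSZ2, and 4.03 and 4.60 with shSiva2 in LSZ4. Thus 7 of 8 shSiva arrays were below the shGFP arrays of their line, and 1 shSiva1 array of LSZ2 was above. Aurka was the only member whose change against shLacZ passed with shSiva2 (-0.83, SE 0.24, adjusted p = 0.0448), while with shSiva1 that change was -0.38 (SE 0.24, adjusted p = 0.331).

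Cdc20 read 6.88 with shGFP in LSZ2, and 8.29 and 8.19 in LSZ4. It read 6.34 and 6.73 with shSiva1 in LSZ2, 6.45 and 7.02 with shSiva1 in LSZ4, 6.60 and 6.39 with shSiva2 in LSZ2, and 6.83 and 7.31 with shSiva2 in LSZ4. Groups did not overlap within a line, and the gap in LSZ4 was far wider than in LSZ2. Its adjusted p was 0.00999.

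Cenpa read 4.35 with shGFP in LSZ2, and 5.80 and 5.76 in LSZ4. It read 4.05 and 4.33 with shSiva1 in LSZ2, 4.14 and 4.84 with shSiva1 in LSZ4, 4.25 and 4.16 with shSiva2 in LSZ2, and 4.44 and 4.90 with shSiva2 in LSZ4. No array overlapped, although the closest in LSZ2 was just under the single shGFP array. The adjusted p of Cenpa was 0.0258.

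Ube2c read 5.70 with shGFP in LSZ2 and 6.52 on both arrays in LSZ4. It ran from 4.96 to 6.01 over the 8 shSiva arrays, each below the shGFP arrays of its line. Its adjusted p was 0.0203, and its second probe gave -0.67 and passed over all probes (adjusted p = 0.0269). Pttg1 read 5.98 with shGFP in LSZ2, and 6.95 and 6.84 in LSZ4, and from 5.64 to 6.19 with the Siva hairpins, with 7 of 8 arrays below (adjusted p = 0.0442), and its second probe gave -0.35 and did not pass. Espl1, separase, gave -0.57 (SE 0.22), Plk1, the kinase of mitotic entry and exit, -0.74 (SE 0.25) and Foxm1 -0.54 (SE 0.22), and none of these 3 passed.

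The members that did not overlap shGFP in either line were Cdc20, Cdc25b, Cenpa, Mad2l1 and Ube2c, 5 of 37, beside 12.6% of all genes. Mad2l1 was the only member below the arrays of both controls in its line on all 8 shSiva arrays, a state that 1.85% of genes shared. Pttg1 lost its call without any 1 of 10 arrays, and Cenpa also without LSZ4 shSiva2 replicate 1. Pttg1 also lost it under median scaling, normexp, no filter on dim probes, 1 mean for each group and a random block for groups, and Cenpa with 1 mean for each group (adjusted p = 0.0564). Aurka, Cdc20, Cdc25b and Ube2c kept their calls against shGFP in the 12 other settings. Leaving out either shGFP array of LSZ4 left 0 members that passed against shGFP, and leaving out the single shGFP array of LSZ2 gave 14. The shGFP arrays of LSZ4 were the dimmest of all, with a brightness of 425 and 455, against 886 for LSZ2 with shGFP.

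**Figure D4:**
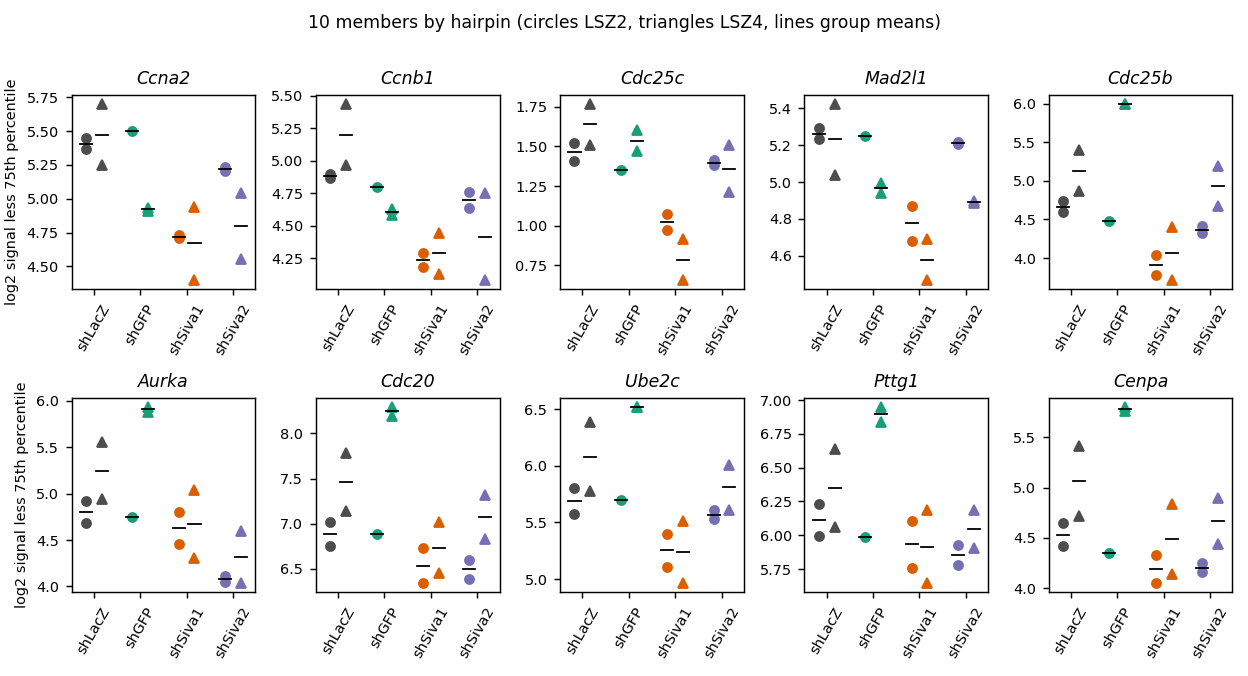
The log2 signal less the 75th percentile of the array (vertical axis) is plotted for each array of 10 members by hairpin (horizontal axis), with circles for LSZ2, triangles for LSZ4 and lines for group means. Ccna2, Ccnb1, Cdc25c and Mad2l1 passed against shLacZ and the other 6 against shGFP, where both LSZ4 arrays with shGFP stand highest.

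Within LSZ4 alone, 12 of 37 members passed downward against shGFP, beside 20.7% of all genes, and 0 upward, beside 8.18% (1 mean for each of the 8 groups). They were the 6 above with Plk1 (-1.17, SE 0.28), Nek2, a centrosome kinase (-0.87, SE 0.20), Espl1 (-0.93, SE 0.24), Foxm1 (-0.86, SE 0.26), Ccnb2 (-0.53, SE 0.18) and Bub1b, the BubR1 of the checkpoint (-0.51, SE 0.17). Within LSZ2, with its single shGFP array, 0 of 37 passed, with 0 at an unadjusted p under 0.05, beside 0.262% of genes downward and 2.1% upward. The difference of this effect between the lines did not pass for any member in either direction, with 9 at an unadjusted p under 0.05 and a lowest adjusted p of 0.287 in limma's test, beside 0.00873% of genes downward and 0% upward. Against shLacZ, Ccnb1 alone passed in LSZ4 (-0.85, SE 0.22, adjusted p = 0.0396), beside 1.9% of genes downward and 5.7% upward, and 0 passed in LSZ2 (0 at an unadjusted p under 0.05), beside 1.06% and 2.92%. All 37 estimates were below 0 in LSZ4 and 32 of 37 in LSZ2, and the difference between the lines did not pass for any member (limma, 0 at an unadjusted p under 0.05), beside 0.292% of genes downward and 0.0349% upward. The count against shGFP in LSZ4 was 1 without either shGFP array of LSZ4, 6 without LSZ4 shSiva2 replicate 1, and 7 without LSZ4 shSiva1 replicate 1. The count against shLacZ in LSZ4 was 3 without LSZ4 shLacZ replicate 2 or LSZ4 shSiva2 replicate 1, 2 without LSZ4 shSiva1 replicate 1, 1 without LSZ2 shGFP, and 0 without any other array.

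The controls themselves were compared directly. They differ in vector and puromycin selection as well as in hairpin, and these cannot be told apart. Between shGFP and shLacZ, 0 members passed in limma's test (0 at an unadjusted p under 0.05), with 1 gene of all tested, 0.00437%, passing upward and none downward. The members' median was -0.17 and that of all genes 0.25. The 4 anaphase-promoting complex partners and separation genes had estimates between 0.31 and 0.51, and the kinases Aurka and Plk1 had 0.42 (SE 0.26) and 0.53 (SE 0.28). Anln and Ect2 lay at -0.75 (SE 0.43) and -0.54 (SE 0.39), and Kif11 at -0.86 (SE 0.46). Members with no overlap between shGFP and shLacZ in either line were Ccnb1, Kif20a, Ndc80 and Nuf2, 4 of 37 and all lower with shGFP, beside 6.21% of all genes. A fit to the 7 control arrays, which share a slide but lie in separate rows by hairpin, also gave 0, beside 0% of genes in either direction.

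The members' values also moved with the brightness of the arrays. With log2 brightness added to line and hairpin as a term, the slope was above 0 for 19 members and below 0 for 18, and passed for 19 and 16 of them, beside 19.4% of all genes upward and 51.9% downward. A signal that stays constant while the 75th percentile moves has a slope of -1 on this scale, which is reduced by that percentile. Slopes were steepest upward for Cenpf (a kinetochore protein of late G2) at 2.73 (SE 0.34), Kif11 at 2.26 (SE 0.22) and Anln at 2.08 (SE 0.21). They were steepest downward for Plk1 at -1.28 (SE 0.15), Birc5 at -1.26 (SE 0.13) and Cdc25b at -1.18 (SE 0.16). Positive slopes belonged to Ccna2, Ccnb1, Bub1, Mad2l1, Ttk, Cenpe, Cenpf, Ndc80, Nuf2, Kif11, Kif23, Kif4, Tpx2, Nusap1, Prc1, Anln, Ect2, Top2a and Mki67. Negative slopes belonged to Ccnb2, Ccnf, Cdk1, Cdc25b, Cdc25c, Aurka, Plk1, Nek2, Bub1b, Cdc20, Ube2c, Pttg1, Espl1, Cenpa, Birc5, Kif20a, Kif2c and Foxm1. Bub1 and Bub1b of the checkpoint, and the B cyclins Ccnb1 and Ccnb2, thus had slopes of opposite sign.

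**Figure D5:**
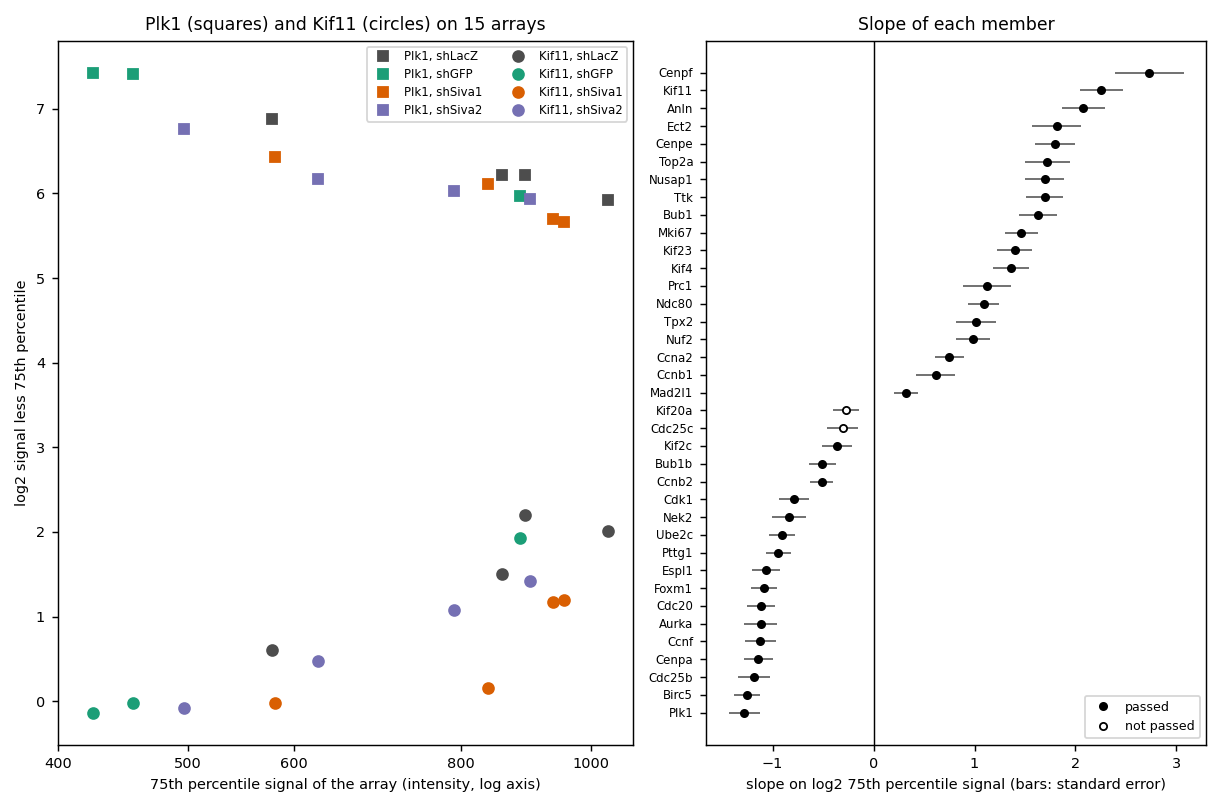
Left, the log2 signal less the 75th percentile (vertical axis) of Plk1 (squares) and Kif11 (circles) is plotted against the 75th percentile signal of each of the 15 arrays (log axis), coloured by hairpin. Right, the slope on log2 brightness with its standard error (horizontal axis) is plotted for the 37 members, filled where it passed, from -1.28 for Plk1 to 2.73 for Cenpf.

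The same pattern could be read between replicates of 1 group, where hairpin and line do not differ. The slopes were fitted to these same arrays, so the pairs are not separate evidence for them. The share of all genes that moved so in the pairs is not given. In 7 pairs of replicates, Kif11, Ttk, Ndc80 and Cenpf were higher on the brighter array in all 7, and 16 members were so in at least 6. Plk1, Birc5, Cenpa, Cdc20, Espl1, Pttg1, Nek2 and Ccnb2 were lower on it in all 7, and 17 members were so in at least 6. The arrays of LSZ4 with shSiva1 had a brightness of 956 and 582, and Kif11 read 1.20 and -0.02 on them, while Plk1 read 5.67 and 6.43. Those of LSZ4 with shLacZ had 893 and 578, with Kif11 at 2.20 and 0.61 and Plk1 at 6.22 and 6.88. The difference between replicates of Kif11 in these pairs (1.22 and 1.59) exceeded its estimated change against shLacZ (-0.91). These pairs had the largest ratios of brightness (1.64 and 1.54). In the other pairs Kif11 differed by 1.02 in LSZ2 with shSiva1, and by 0.56, 0.50, 0.34 and 0.11 in the rest.

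With brightness in the model, 19 members passed downward against shLacZ and 19 against shGFP, with 0 upward in either, beside 23.7% of genes downward and 13.4% upward against shLacZ, and 16% and 13.2% against shGFP. The members' medians were -0.30 and -0.34, beside -0.09 and -0.07 over all genes. Kif11 passed against both at -0.59 (SE 0.12, adjusted p = 0.00351) and -0.81 (SE 0.15, adjusted p = 0.00304), as did Kif4 at -0.37 (SE 0.10) and -0.37 (SE 0.13). All 10 members that had passed before passed against shLacZ, and all but Cdc25c (-0.23, SE 0.11, adjusted p = 0.135) against shGFP. Aurka gave -0.76 (SE 0.09) and -0.64 (SE 0.12), Cdc20 -0.62 (SE 0.08) and -0.60 (SE 0.10), Ccna2 -0.48 (SE 0.08) and -0.55 (SE 0.10), and Ccnb1 -0.55 (SE 0.11) and -0.47 (SE 0.14), against shLacZ and shGFP in that order. Members that then passed against shLacZ but had not passed before were Kif11, Plk1, Espl1, Ccnb2, Bub1b, Kif4, Foxm1, Nek2 and Prc1 with the 6 that had passed against shGFP. Top2a, Mki67, Ect2, Nusap1, Anln, Cenpe, Bub1 and Cenpf passed against shGFP in this fit and not against shLacZ, and whether these changes differ was not tested. Anln, Bub1, Cenpe, Cenpf, Kif4, Mki67 and Nusap1 had estimates above 0 against shGFP without the brightness term and passed below 0 with it. What sets the brightness of an array was not tested.

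Each Siva hairpin was also set against the controls by itself. With shSiva1, 6 of 37 members were lower than with shLacZ, beside 7.29% of all genes: Ccnb1 (-0.78, SE 0.18), Ccna2 (-0.75, SE 0.18), Cdc25b (-0.91, SE 0.25), Cdc25c (-0.65, SE 0.14), Mad2l1 (-0.57, SE 0.13) and Ube2c (-0.64, SE 0.20). With shSiva2, Aurka was lower, 1 of 37, beside 4% of genes, and this call was lost without any 1 of LSZ2 shLacZ replicates 1 and 2, LSZ4 shLacZ replicate 2, LSZ2 shSiva1 replicate 1, LSZ4 shSiva1 replicate 2, LSZ4 shGFP replicate 1 or any shSiva2 array. None were higher in either, beside 9.21% and 5.26% of genes. Against shGFP the counts were 10 with shSiva1 (21.9% of genes downward) and 2 with shSiva2 (Aurka and Cdc20, 6.49%), with 0 higher, beside 9.87% and 5.04% of genes. The direct comparison of shSiva2 with shSiva1 passed for Cdc25c, higher with shSiva2 by 0.47 (SE 0.14, adjusted p = 0.0305), 1 of 37 beside 10.9% of all genes upward and 9.93% downward. Other probes of 3 members passed upward over all probes: both others of Ccnb1 (0.48 and 0.50, adjusted p = 0.0255 and 0.0233), both others of Mad2l1 (0.73 each, adjusted p = 0.00614 and 0.00553) and 1 of 2 others of Cdk1 (0.79, adjusted p = 0.00224). The brightest probes of these genes, at 0.29, 0.37 and 0.05, and the last probe of Cdk1, at 0.13, did not pass. The median difference of the members, 0.15, lay beside 0.14 over all genes. Siva1 itself was 0.84 higher with shSiva2 (SE 0.27, adjusted p = 0.0413), a call lost in 8 of the 15 fits that left out an array. On the 8 shSiva arrays alone, which share a slide, 0 members passed in limma's test, beside 10.8% of genes upward and 10.2% downward. With shSiva1 against shGFP the count fell to 3 without either shGFP array of LSZ4 or LSZ4 shSiva1 replicate 1, and to 5 without LSZ2 shSiva1 replicate 1. With shSiva2 against shGFP it was 9 without the LSZ2 shGFP array, and 1 without either LSZ4 shGFP array, LSZ2 shSiva1 replicate 1, either LSZ2 shSiva2 array or LSZ4 shSiva2 replicate 1. Cdc25c no longer passed between the hairpins without any 1 of LSZ2 shSiva1 replicate 1, either LSZ4 shSiva1 array, either LSZ2 shSiva2 array or LSZ4 shSiva2 replicate 1. In the fit with brightness, 28 members were lower with shSiva1 than with shLacZ (28.5% of genes) and 20 than with shGFP (19.5%). With shSiva2, 12 were lower than with shLacZ (18.4%) and 10 than with shGFP (15.8%), and 0 were higher in any of these 4 comparisons (17%, 15.7%, 11.5% and 13.5% of genes, in the same order). Between the hairpins, 14 members were higher and 2 (Aurka and Foxm1) lower with shSiva2, beside 22.2% and 19.5% of genes.

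Between the lines, LSZ2 had higher Kif23, the centralspindlin motor (0.62, SE 0.21, adjusted p = 0.0373), and Tpx2, an activator of Aurora A (0.49, SE 0.17). It had lower Espl1 (-0.66, SE 0.17, adjusted p = 0.0132), Cdc20 (-0.62, SE 0.17), Cenpa (-0.61, SE 0.18), Cdc25b (-0.60, SE 0.18), Plk1 (-0.56, SE 0.19), Birc5 (-0.51, SE 0.19) and Bub1b (-0.34, SE 0.11). Adjusted over all probes, the other probe of Tpx2 (0.16) and the others of Birc5 (-0.51 and -0.60) did not pass. Both other probes of Ccnb1 passed downward (-0.28 and -0.29, adjusted p = 0.0482 and 0.0486 in limma's test), while its brightest gave 0.01. By the brightest probes, 2 of 37 members passed upward and 7 downward, beside 11.8% and 24.9% of all genes. The split was 4 and 4 under quantile scaling (14.4% and 18.9% of genes), 2 and 1 with normexp (4.91% and 11.4%), and 1 (Foxm1) and 1 (Cenpe) with brightness in the model (7.9% and 4.57%), where Cdc25b, Plk1 and Birc5 had estimates above 0 and Kif23 and Tpx2 below 0. The LSZ2 arrays lay between 791 and 1029 in brightness and the LSZ4 arrays between 425 and 956. The counts that follow, of members passing in either direction, come from fits without an array and have no share of all genes beside them. The count was 0 without the LSZ2 shGFP array, 27 without LSZ4 shSiva1 replicate 1, 25 without LSZ4 shLacZ replicate 1 and 20 without LSZ2 shSiva1 replicate 2. It was 2 to 4 without LSZ2 shLacZ replicate 1, LSZ2 shSiva1 replicate 1, either LSZ2 shSiva2 array, either LSZ4 shGFP array, LSZ4 shLacZ replicate 2, LSZ4 shSiva1 replicate 2 or LSZ4 shSiva2 replicate 2.

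Over the wider machinery of G2 and mitosis, 144 genes in 6 further lists were tested, with Anapc10 and Kif14 not measured. Against shLacZ, 10 passed downward and 2 upward (4.02% and 7.04% of all genes), and against shGFP 18 and 2 (13.3% and 7.11%). These counts moved with the settings. With brightness in the model, 56 passed downward and 4 upward against shLacZ (23.7% and 13.4% of genes), and 49 and 5 against shGFP (16% and 13.2%). With normexp, 3 passed downward and 1 upward against shLacZ (1.43% and 3.68% of genes). Without a filter on dim probes the counts were also 3 and 1 (1.84% and 3.88%). Against shGFP, the downward count was lowest, at 9, with 1 mean for each group (7.26% of genes). It was highest, at 55, with brightness and quantile scaling together (16.9%), and was 48 with the replicate numbers as a block (31.5%). Among 22 genes of mitotic entry and its checkpoints, Gadd45a, a p53-induced gene whose product holds back Cdk1, rose by 2.23 against shLacZ (SE 0.14, adjusted p = 8.72e-07) and 2.02 against shGFP (SE 0.15). Chek2, a DNA damage checkpoint kinase, fell by 0.89 (SE 0.13) and 0.88 (SE 0.14). In that list 1 gene passed upward and 2 downward against shLacZ, and 1 and 6 against shGFP. Gadd45a and Chek2 passed against both controls in all 13 settings of scaling, filter and model, the reported one among them. Of the genes named from these lists below, Cenpn, Anapc13, E2f8 and Nfyc against shGFP and E2f5 against shLacZ did so too. Cenpn and Zw10 against shLacZ and Anapc11 against shGFP passed in 12, Ncaph against shLacZ and Cdca5 against shGFP in 11, Ncaph, Zwint and Troap against shGFP in 10, and Anapc1 and Nfya against shLacZ in 9.

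Among 17 regulators of G2/M transcription, 2 passed downward against shLacZ and 3 against shGFP. Over all genes, 4.02% passed downward against shLacZ and 13.3% against shGFP, which is the background for each list in this paragraph. E2f5, a repressor E2F, fell by 0.91 (SE 0.13) against shLacZ and by 0.54 (SE 0.15) against shGFP. Its change against shLacZ was -1.60 (SE 0.15) with shSiva2 and -0.22 (SE 0.15) with shSiva1, and the latter did not pass. Against shGFP, E2f5 gave -1.23 (SE 0.17) with shSiva2 and 0.16 (SE 0.17) with shSiva1, which did not pass. Nfya, of the NF-Y complex that binds CCAAT, fell by 0.38 against shLacZ (SE 0.11), and its partner Nfyc by 0.77 against shGFP (SE 0.21). By single hairpins, both passed in these comparisons with shSiva2 and not with shSiva1. E2f8 fell by 0.69 against shGFP (SE 0.16). Of 18 genes of the anaphase-promoting complex and its regulators, Anapc1 alone passed against shLacZ (-0.44, SE 0.12), and Anapc13 (-1.01, SE 0.25) and Anapc11 (-0.96, SE 0.26) against shGFP. By single hairpins, Anapc1 and Anapc11 passed in these comparisons with shSiva1 and not shSiva2, and Anapc13 with shSiva2 and not shSiva1. Anapc11 gave -1.55 (SE 0.29) with shSiva1 and -0.37 (SE 0.29) with shSiva2. It was 1.18 higher with shSiva2 than with shSiva1 (SE 0.27, adjusted p = 0.00602 in limma's test).

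Of 36 other kinetochore and centromere genes, 4 fell and 1 rose against each control. Over all genes, 4.02% fell and 7.04% rose against shLacZ, and 13.3% and 7.11% against shGFP, the background for each list in this paragraph. Cenpn, which reads the Cenpa nucleosome, fell by 0.51 (SE 0.13) and 0.58 (SE 0.15), Zw10, which helps bring dynein to kinetochores, by 0.50 against shLacZ (SE 0.12), and Zwint rose by 0.43 against shGFP (SE 0.12). By single hairpins, Zw10 and Zwint passed in these comparisons with shSiva1 and not shSiva2. Cenpn passed with both hairpins against shGFP and with shSiva2 only against shLacZ. Of 20 condensin and cohesin genes, Ncaph, a condensin I subunit, fell by 0.48 (SE 0.13) and 0.54 (SE 0.14), and Cdca5, sororin, by 0.82 against shGFP (SE 0.25). Taken by single hairpins, Ncaph passed against each control with shSiva1 and not shSiva2, and Cdca5 passed with neither. Of 31 other spindle, centrosome and cytokinesis genes, 0 passed against shLacZ, where Plk4, the kinase of centriole copying, gave -0.79 (SE 0.28, adjusted p = 0.0936) in limma's test. Troap (-0.68, SE 0.20) was the single gene of that list to pass against shGFP, and by single hairpins it passed with shSiva1 and not shSiva2. Between shGFP and shLacZ, 0 of the 144 passed.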

How the data were processed

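Cy3-labelled RNA (200 ng) of each sample was hybridised to 1-colour Agilent arrays, and spots were read with Feature Extraction 10.7.3.1, which gave background-subtracted, detrended signal intensity values, per the file headers. The authors' deposited value table holds log2 values with each probe's median at 0 over the arrays; how the authors made it is not given in the sources used here, and it served as an alternative.

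Here control spots were left out, repeat spots were averaged within probes, and the log2 intensity less the array's 75th percentile was used. Of 55681 probes, 32189 passed a filter of 4 or more arrays well above background and no more than 3 with a missing value. Symbols came from RefSeq by accession for 26582 probes, and 29099 kept the file's name. Each gene was represented by its brightest probe. Tests used limma 3.58.1 in R 4.3.3 with line and hairpin as terms, or 1 mean for each of the 8 groups within lines, and Benjamini-Hochberg adjusted p under 0.05. The number of arrays limits the precision, and no spot was saturated.

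The members, the lists and the models were chosen with earlier results of these data known. Members and Siva1 could be named, with the 2 genes of smallest p per list against each control. E2f5 against shGFP falls outside that rule. On simulated data for shSiva against shLacZ (22883 genes), 2 of 67 genes changed by 0.5 (log2) were recovered, 40 of 67 changed by 1 and 60 of 66 changed by 2. Far fewer genes were changed there than passed in the data, which makes the adjusted p stricter. Recovery there thus does not give the power of the reported test. Alternatives varied scaling, background, filter, probe choice, source of values, model and samples. A further marker of blood and immune cells is not reported here.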

Additional observations from a re-analysis of the deposited data

How the results depend on the processing

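The labels do not say whether equal replicate numbers pair samples across groups, and the main model left these numbers out. Over 21 pairs of groups the correlation of same-numbered deviations ran from -0.21 to 0.73 (median 0.23), and 14 were over 0.1. Whether arrays with the same number share an effect was not tested. With the replicate block, 12 members passed against shGFP (31.5% of all genes), 8 with shSiva2 against shGFP (16.4%), 2 with shSiva2 against shLacZ (6.64%), all downward, 3 between the Siva hairpins, all upward (16.9%), and 19 between the lines, 11 upward and 8 downward (16.1% and 33.7%). Counts below are of the members that passed, downward unless said, with the percentage of all genes that passed the same way in brackets, and the cause of each change was not tested. Counts from fits that leave out an array are in either direction.

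With array brightness as a covariate the counts were 19 for shSiva against shLacZ, 19 against shGFP, 28 for shSiva1 against shLacZ, 20 against shGFP, 12 for shSiva2 against shLacZ, 10 against shGFP, 16 between the Siva hairpins (14 upward and 2 downward) and 2 between the lines (1 each way), with the percentages of genes given beside the results. The members' median less that of all genes was then -0.27 for shSiva against shGFP, 0.0047 for shGFP against shLacZ and -0.12 for LSZ2 against LSZ4. With brightness and quantile scaling together, chosen after seeing the data, the counts in the same order were 17 (19.9%), 21 (16.9%), 23, of which 22 were downward (24.3%), 22, of which 21 were downward (19.9%), 11 (17.4%), 10 (17.2%), 21, of which 15 were upward and 6 downward (23% and 21.7%), and 3, of which 1 was upward and 2 downward (9.06% and 6.51%). These medians were -0.30, 0.079 and -0.13. With quantile scaling alone, 7 passed for shSiva against shLacZ (6.36%), 5 for shSiva2 against shLacZ (6.35%), 8 for shSiva2 against shGFP (10%) and 6 between the Siva hairpins, 4 upward and 2 downward (14.1% and 14.3%). Median scaling left 0 for shSiva against shLacZ (3.59%), 4 for shSiva1 against shGFP (16.1%) and 0 between the hairpins (9.64% upward and 10.6% downward). Normexp left 0 for shSiva against shLacZ (1.43%), 0 for shSiva2 against shLacZ (1.69%), 1 for shSiva2 against shGFP (1.96%) and 3 between the lines, 2 of them upward (4.91%) and 1 downward (11.4%), with a median less that of all genes of 0.22 between the hairpins. Without a filter on dim probes the counts were 1 for shSiva against shLacZ (1.84%), 0 for shSiva2 against shLacZ (1.81%), and 5 for shSiva1 (11.6%) and 1 for shSiva2 (2.73%) against shGFP. Between the hairpins 0 passed there (6.07% upward and 6% downward). The random block (correlation 0.073) left 2 for shSiva (3.21%) and 0 for shSiva2 (3.4%) against shLacZ. With 1 mean for each of the 8 groups, 5 passed for shSiva1 (14.6%) and 1 for shSiva2 (4.63%) against shGFP, 2 between the hairpins, both upward (12.2%), and 16 between the lines, 8 each way (15.5% upward and 33.2% downward). The mean of all probes gave 3 between the hairpins, all upward (11.1%), and the 8 shSiva arrays alone 0 (10.8% upward and 10.2% downward). The deposited value table and the filter on all arrays moved no count by over 1.5 times.

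Some changes of sign of members and of Siva1 are listed here, given with brightness and then with brightness and quantile scaling. The list is not complete: against shGFP, 14 of 37 estimates were above 0 as reported and 5 with brightness. A gene listed for a single fit may have changed sign in the other as well. Against shGFP these were Anln (-0.55, -0.55), Bub1 (-0.44, -0.49), Cenpe (-0.46, -0.49), Cenpf (-0.78, -0.73), Kif4 (-0.37, -0.40), Mki67 (-0.48, -0.49) and Nusap1 (-0.51, -0.55). Kif23 is listed there for the latter fit (-0.38). Those listed between the lines were Birc5 (0.14, 0.064), Cenpe (-0.60, -0.70), Foxm1 (0.37, 0.30), Kif23 (-0.11, -0.17), Plk1 (0.10, 0.017), Tpx2 (-0.037, -0.11) and Siva1 (0.42, 0.39). Cdc25b is listed there for the former fit (0.014) and Mki67 for the latter (-0.46). Between the Siva hairpins, Cenpe was at 0.38 with brightness, and Birc5 at -0.24, Cdc20 at -0.17, Cenpa at -0.17 and Pttg1 at -0.215 with both. Quantile scaling alone turned Ccnb2 between the lines (0.28) and Pttg1 between the hairpins (-0.21).

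Leaving out each array in turn, counts ran from 0 to 6 for shSiva against shLacZ, 0 to 14 against shGFP, 4 to 6 for shSiva1 and 0 to 1 for shSiva2 against shLacZ, 3 to 15 for shSiva1 and 1 to 9 for shSiva2 against shGFP, 0 to 2 between the hairpins, 0 to 27 between the lines, 0 to 3 against shLacZ and 1 to 15 against shGFP within LSZ4, and 0 to 0 between the controls. The median less that of all genes ran from -0.41 to -0.18 against shLacZ, -0.073 to 0.17 against shGFP, -0.59 to -0.27 between the controls, -0.062 to 0.060 between the hairpins and 0.14 to 0.37 between the lines. The share of all genes that passed in these fits is not given. Where 1 array was left in a group, it was assumed to vary like the others. Without the LSZ2 shGFP array, that contrast within LSZ2 could not be fitted. Signal over background limits Aurkb, which was not well above background on any of the 15 arrays.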
